A study of Mus musculus with 24 samples.

Results

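Sult1e1, Sult1d1, Sult1c1 and Sult1a1 encode cytosolic sulfotransferases, and their levels were followed through the upper and lower jaws of mouse embryos. They are 4 of the 18193 genes that the arrays measured under a single gene symbol, read by 5 of 34945 such probe sets. They were chosen from the readout itself, because the effect of genotype on them differed between the jaws. Their genotype and jaw differences are therefore given as descriptions with no test, while differences between the ends of a jaw, which the choice did not use, were tested. Where a gene had more than a single probe set, the brightest over the 24 arrays stood for it.

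The embryos were of strain C57B6 at embryonic day 14.5, bred by crossing Wnt1-Cre;Tgfbr2 fl/+ mice with Tgfbr2 fl/fl mice, and the 24 arrays form 8 groups of 3. The groups are mutant and control littermate embryos, and each contributed 4 pieces, the distal and proximal maxilla, which is the upper jaw, and the distal and proximal mandible, the lower jaw. Mutants were recognised by their cleft palate and calvarial defect, while the labels do not say which alleles each control littermate carried. Wnt1-Cre acts in neural crest cells, which form most connective tissue and bone of the face. Which cells of these pieces had lost Tgfbr2, in the epithelium of mouth and nose or elsewhere, was not measured. Whether the replicates of a group came from separate embryos or litters is not stated, so the errors measure only the spread between these arrays.

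Cytosolic sulfotransferases transfer a sulfonate group from the donor PAPS (3'-phosphoadenosine-5'-phosphosulfate) to small hydroxylated molecules, which makes these more soluble and usually ends their activity as hormones or odorants. Sult1e1 is the oestrogen sulfotransferase. Sult1d1 acts in mice on dopamine and other small amines and phenols. Sult1a1 is a widely expressed phenol sulfotransferase, and Sult1c1 also carries the RefSeq synonym mOLFST. The olfactory epithelium and the glands of the nose are known for their supply of such detoxifying enzymes.

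Sult1d1 and Sult1e1 are direct neighbours on chromosome 5, whereas Sult1c1 lies on chromosome 17 and Sult1a1 on chromosome 7. The 250 bases before each gene's start are printed because 3 of the 4 genes moved together across the arrays. They are from RefSeq, build GRCm38.p6, and all 4 lie on the minus strand. Capitals mark TATAAA, the TATA box, and CANNTG, the E-box.
Sult1e1, chr5:87591612-87591861: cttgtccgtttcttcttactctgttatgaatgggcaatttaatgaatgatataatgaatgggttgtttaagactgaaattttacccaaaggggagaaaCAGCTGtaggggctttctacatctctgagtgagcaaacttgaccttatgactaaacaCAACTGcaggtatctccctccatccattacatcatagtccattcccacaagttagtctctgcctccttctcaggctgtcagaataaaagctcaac
Sult1d1, chr5:87569007-87569256: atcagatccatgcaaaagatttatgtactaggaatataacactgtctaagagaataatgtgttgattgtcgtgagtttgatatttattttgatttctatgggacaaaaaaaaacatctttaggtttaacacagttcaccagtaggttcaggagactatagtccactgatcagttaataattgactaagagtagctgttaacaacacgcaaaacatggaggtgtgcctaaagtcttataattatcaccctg
Sult1c1, chr17:53990632-53990881: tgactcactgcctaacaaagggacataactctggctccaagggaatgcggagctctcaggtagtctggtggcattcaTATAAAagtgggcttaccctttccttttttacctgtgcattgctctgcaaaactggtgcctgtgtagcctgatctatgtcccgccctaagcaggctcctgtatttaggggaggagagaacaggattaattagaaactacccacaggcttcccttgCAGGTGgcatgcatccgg
Sult1a1, chr7:126676419-126676668: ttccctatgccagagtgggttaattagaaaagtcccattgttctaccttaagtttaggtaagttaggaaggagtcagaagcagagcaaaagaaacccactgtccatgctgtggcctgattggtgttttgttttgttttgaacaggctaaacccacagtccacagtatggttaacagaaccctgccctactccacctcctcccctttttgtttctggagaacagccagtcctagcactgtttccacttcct
Motifs were searched on both strands. The Sult1e1 window held CANNTG at 152 and at 95 bases before the start, and the Sult1c1 window held it at 18 bases. TATAAA was found at 173 bases before the start of Sult1c1. CAGAC, the core that Smad proteins bind, occurred on the other strand of Sult1c1 at 188 bases, and GCGTG, the core bound by the dioxin receptor Ahr, on the other strand of Sult1d1 at 47 bases. No searched motif occurred in the Sult1a1 window. Of 32851 promoters of this length, 66.2% held CANNTG, 42.2% CAGAC, 28.2% GCGTG and 12.4% TATAAA, and no motif was shared by the 3 genes that moved together.

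All values are RMA signals on a log2 scale, where a difference of 1 is a doubling of signal. Array medians lay between 6.93 and 7.0, and values near 4 to 5 lie at the dim end, where background dominates and differences are understated. Signals of different probe sets cannot be set against each other. No array duplicated another, the smallest root mean square difference within a group being 0.174. Tgfbr2 was not lower in mutants: its brightest probe set read 12.16 to 12.56 in the 12 mutant arrays and 11.52 to 12.12 in the 12 control arrays. Where that probe set lies relative to the floxed part of the gene is not given, so it does not check the genotype. In dissected pieces of tissue, fewer cells of a type and less RNA per cell cannot be told apart.

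Sult1e1 was bright in the control maxilla and dim in every mandible array. Its signal in the proximal maxilla was 4.82, 4.84 and 9.07 in the mutants, against 10.16, 11.01 and 10.72 in the controls. In the distal maxilla it was 4.75, 7.53 and 8.27 in the mutants, against 10.14, 6.95 and 9.76 in the controls. Mutant and control arrays thus stood apart in the proximal maxilla and overlapped in the distal maxilla, where control replicate 2 lay below 2 of the 3 mutants. The 12 mandible arrays ranged from 4.41 to 5.09, and 3 of the 6 mutant maxilla arrays fell inside that range. The mutant minus control difference was −4.39 ± 0.97 (SE of the fit, n = 3 against 3) in the proximal and −2.10 ± 0.97 in the distal maxilla. In the mandible it was 0.15 distally and 0.12 proximally. The SE here and for the other genes comes from 1 fit of all 24 arrays, which also pools the mandible groups. The SD of Sult1e1 was 2.45 in mutants and 0.43 in controls proximally, and 1.86 and 1.74 distally, against 0.07 to 0.21 in the mandible groups.

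Sult1d1 followed the same arrays. In the proximal maxilla it read 4.12, 4.0 and 7.70 in the mutants, against 8.86, 9.57 and 9.08 in the controls. Distally it read 4.45, 6.01 and 6.42 in the mutants, against 8.94, 5.39 and 8.09 in the controls. Again proximal mutants and controls did not overlap, and the distal ones overlapped through control replicate 2. Mandible values ranged from 3.89 to 4.27 over 12 arrays, which includes proximal mutant replicates 1 and 2. The mutant minus control difference was −3.90 ± 0.82 (SE, n = 3 against 3) in the proximal and −1.85 ± 0.82 in the distal maxilla, and −0.07 distally and −0.10 proximally in the mandible. The other Sult1d1 probe set was dimmer, with 3.95 to 6.09 over the 6 mutant maxilla arrays, 4.54 to 8.10 over the 6 control maxilla arrays and 3.87 to 4.14 in the mandible.

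Sult1c1 was the gene whose mutant and control arrays did not overlap at either end of the maxilla. Its proximal values were 4.23, 4.33 and 5.64 in the mutants, against 7.28, 8.97 and 8.57 in the controls. Its distal values were 4.37, 6.11 and 5.50 in the mutants, against 8.95, 6.22 and 8.0 in the controls. The distal gap was narrow, because mutant replicate 2 and control replicate 2 differed by little. All mandible arrays lay between 4.13 and 4.65, and the 3 lowest mutant maxilla arrays lay inside that range. The difference was −3.54 ± 0.55 (SE, n = 3 against 3) in the proximal and −2.40 ± 0.55 in the distal maxilla, and 0.11 distally and 0.07 proximally in the mandible. Without distal control replicate 2 the distal difference of Sult1c1 was −3.15.

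Sult1a1 ran the other way. In the proximal maxilla its signal was 8.28, 8.07 and 7.95 in the mutants, against 7.38, 7.36 and 7.19 in the controls. At the distal end it was 8.19, 7.78 and 7.45 in the mutants, against 7.42, 7.53 and 7.39 in the controls. The proximal groups did not overlap, and the distal ones did, through mutant replicate 3. The difference was 0.79 ± 0.15 (SE, n = 3 against 3) proximally and 0.36 ± 0.15 distally, and without distal mutant replicate 1 the distal difference was 0.17. In the mandible Sult1a1 lay between 6.87 and 7.53 in all 12 arrays. The mandible difference was −0.09 distally and 0.26 proximally, and the proximal mandible values, 7.37 to 7.53 in mutants and 7.07 to 7.25 in controls, did not overlap.

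**Figure D1:**
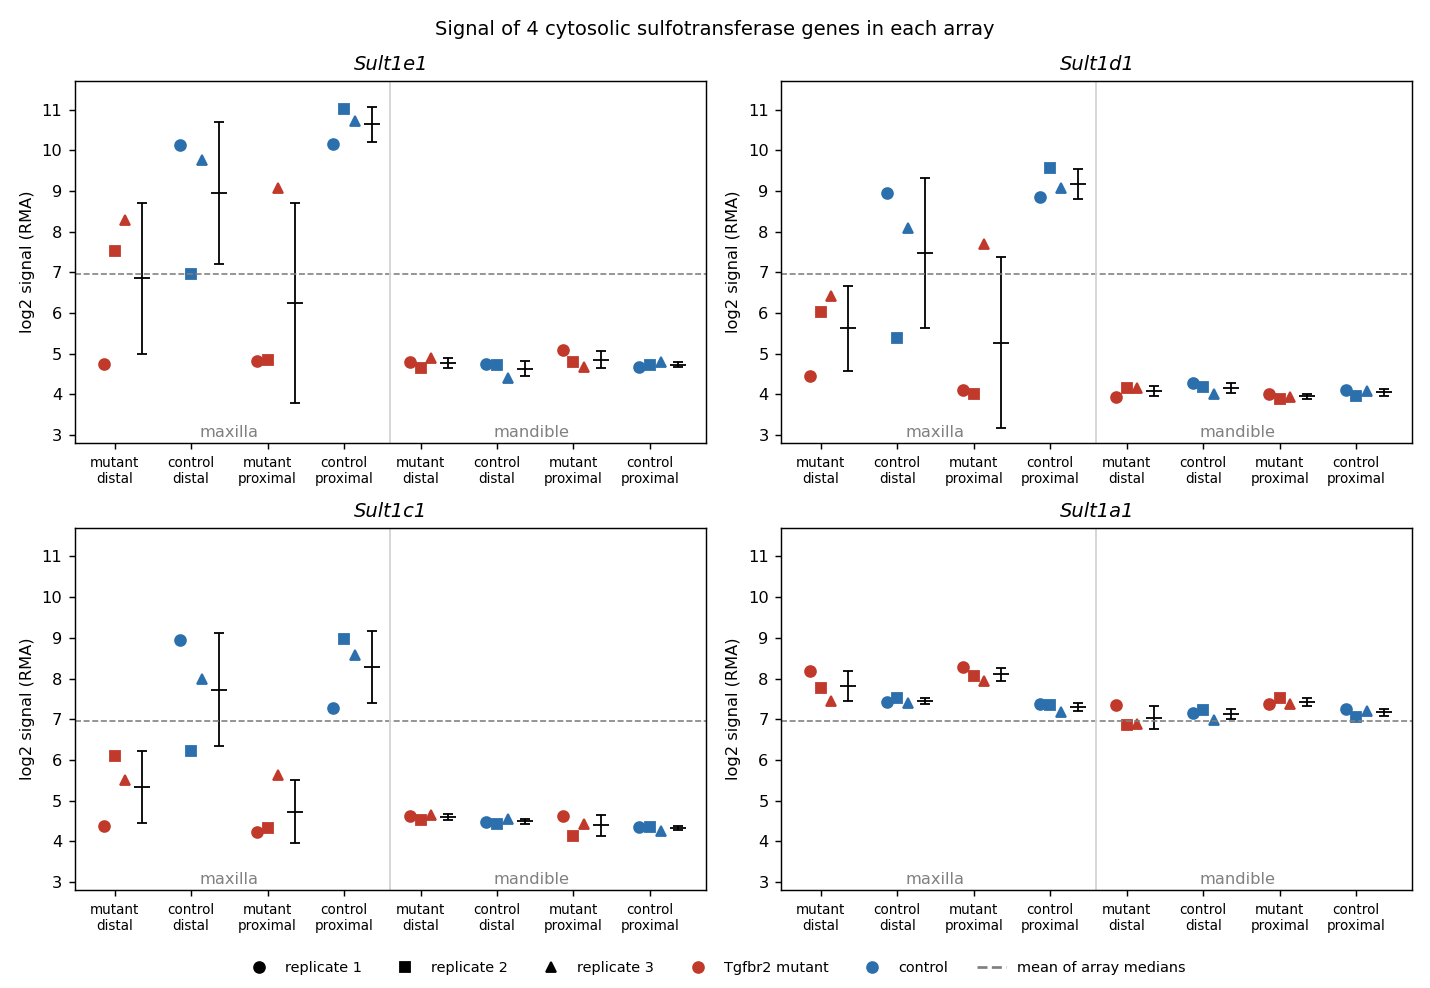
Log2 RMA signal (vertical axis) of Sult1e1, Sult1d1, Sult1c1 and Sult1a1 in each of the 24 arrays, by genotype, jaw and end (horizontal axis). Symbols are replicates, bars are the mean ± SD of 3 arrays, and the dashed line is the mean of the array medians. Sult1e1 reaches 10.16 to 11.01 in control proximal maxilla and stays at 4.41 to 5.09 in every mandible array, while Sult1a1 is highest in the mutant maxilla.

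Counted over the 4 genes, mutants and controls did not overlap for all 4 in the proximal maxilla, 3 lower and 1 higher in mutants. Groups did not overlap in that comparison for 36.2% of the 12811 genes tested, 16.7% lower and 19.5% higher in mutants. Distally they did not overlap for 1 gene, Sult1c1, which was lower in mutants, against a background of 5.83% lower and 11.6% in either direction. In the mandible they did not overlap for 0 of the 4 distally, against 22%, and for Sult1a1 alone proximally, which was higher, against 8.86% higher and 24.2% in either direction. Since the genes were chosen for their genotype effect, nothing is read from these counts.

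The jaws can be compared over 6 arrays of a genotype and jaw. In mutants the maxilla minus mandible difference was 1.73 for Sult1e1, 1.43 for Sult1d1, 0.53 for Sult1c1 and 0.72 for Sult1a1. In controls it was 5.11 for Sult1e1, 4.22 for Sult1d1, 3.59 for Sult1c1 and 0.23 for Sult1a1. The name of maxillary enzymes thus describes the first 3 genes, but Sult1a1 was close to equally bright in the control maxilla, at 7.19 to 7.53, and in the mandible. Of the relatives tested below, Sult2b1 and Sult4a1 also had higher control group means in the maxilla, and Sult5a1 lower ones. Distally and proximally these were 9.20 and 8.95 for Sult2b1, against 7.16 and 6.49 in the mandible. For Sult4a1 they were 7.98 and 9.54, against 6.67 and 7.06, and for Sult5a1 8.91 and 8.35, against 9.49 and 9.21. By group mean, Sult1e1 stood in the order control proximal (10.6 ± 0.43, SD, n = 3), control distal (8.95 ± 1.74), mutant distal (6.85 ± 1.86) and mutant proximal maxilla (6.24 ± 2.45), above all mandible groups. Neighbours in this order lay within the larger of their SDs except mutant distal and control distal maxilla, whose arrays nevertheless overlapped. Sult1a1 stood in the order mutant proximal maxilla (8.10 ± 0.17), mutant distal maxilla (7.81 ± 0.37), control distal maxilla (7.44 ± 0.07) and mutant proximal mandible (7.43 ± 0.09), with the other 4 groups between 7.04 and 7.31.

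All 4 genes passed the filter on dim genes, which asks for a value above the array's median in 3 of 24 arrays. Sult1a1 exceeded the median in 22 arrays, Sult1e1 in 8, Sult1d1 in 6 and Sult1c1 in 5, and those 5 were all control maxilla. Sult1c1, Sult1d1 and Sult1e1 thus entered the tests through the tissue in which they were bright.

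Whether the distal and proximal ends differed was tested with limma across all genes. In the control maxilla, 0 of the 4 genes passed, where 8.42% of genes tested did (1079 genes, or 1729 with the replicate number as a block). The distal minus proximal difference was −1.69 ± 0.97 for Sult1e1 (SE, 95% interval −3.71 to 0.34, adjusted p = 0.341) and −1.70 ± 0.82 for Sult1d1 (−3.41 to 0.02, adjusted p = 0.233). For Sult1c1 it was −0.55 ± 0.55 (−1.71 to 0.61, adjusted p = 0.648), and for Sult1a1 0.14 ± 0.15 (−0.18 to 0.45, adjusted p = 0.688). The intervals of the first 3 are wide enough to hold no difference or a several-fold one. Distal control replicate 2 carried much of these values: without it the differences were −0.69 for Sult1e1, −0.66 for Sult1d1 and 0.20 for Sult1c1, the last with its sign turned. The dimmer Sult1d1 probe set gave −1.69, with a limma adjusted p of 0.0453.

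The genotype effect itself was then compared between the ends. In the maxilla it was less negative distally for Sult1e1 by 2.29 ± 1.37 (SE, adjusted p = 0.595), for Sult1d1 by 2.05 ± 1.16 (adjusted p = 0.558) and for Sult1c1 by 1.15 ± 0.78 (adjusted p = 0.653). For Sult1a1 the distal minus proximal difference of the effect was −0.43 ± 0.21 (adjusted p = 0.485). No member passed, where 0.00781% of genes, a single gene, did by limma and 1360 had an unadjusted p under 0.05. The fit pools the spread over all 8 groups, although the group SDs of the 4 genes ran from 0.05 to 0.28 in the mandible and up to 2.45 in the maxilla. With limma array weights, which count arrays far from their group's values for less, all 4 passed (limma adjusted p = 0.00353 for Sult1e1, 0.00596 for Sult1d1, 0.0457 for Sult1c1 and 0.017 for Sult1a1). In that setting 2414 of the 12811 genes tested passed. Sult1d1 also passed without proximal mutant replicate 3 (3.26, limma adjusted p = 0.0448), where 652 genes did. Without distal control replicate 2 the differences shrank to 1.30 for Sult1e1, 1.01 for Sult1d1 and 0.39 for Sult1c1. In proximal mutant replicates 1 and 2, Sult1e1, Sult1d1 and Sult1c1 lay inside their mandible ranges, at the dim end. Their proximal fall was thus capped by the control level. The comparison of effects then repeats in part the control end difference tested above. For Sult1d1 the mutant maxilla ends differed by only 0.35. For these 3 genes it cannot show whether genotype acted differently at the ends, with or without array weights. For all 4 genes the calls depended on how the unequal arrays were weighed.

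In the mandible Sult1e1, Sult1d1 and Sult1c1 lay at the dim end of the scale in every array, so their end differences there are given without a test. The distal minus proximal difference in controls was −0.11 for Sult1e1, 0.10 for Sult1d1 and 0.16 for Sult1c1, and the difference of the genotype effect between the ends was 0.03, 0.03 and 0.04 for the same genes. Sult1a1 was bright enough to test. In the mutant mandible it read 7.36, 6.87 and 6.89 distally, against 7.38, 7.53 and 7.37 proximally. As a description with no test, the distal minus proximal difference was −0.39 (95% interval −0.70 to −0.08, not adjusted for the number of genes). In the control mandible it was −0.04 ± 0.15 (SE, limma adjusted p = 0.945), where 5.78% of genes passed (740 genes, or 1193 with the replicate number as a block). The genotype effect on Sult1a1 differed between the mandible ends by −0.35 ± 0.21 (SE, adjusted p = 0.676). For that difference of effects limma called 0 genes in all, with 1025 at an unadjusted p under 0.05 and 1 called with the replicate block.

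**Figure D2:**
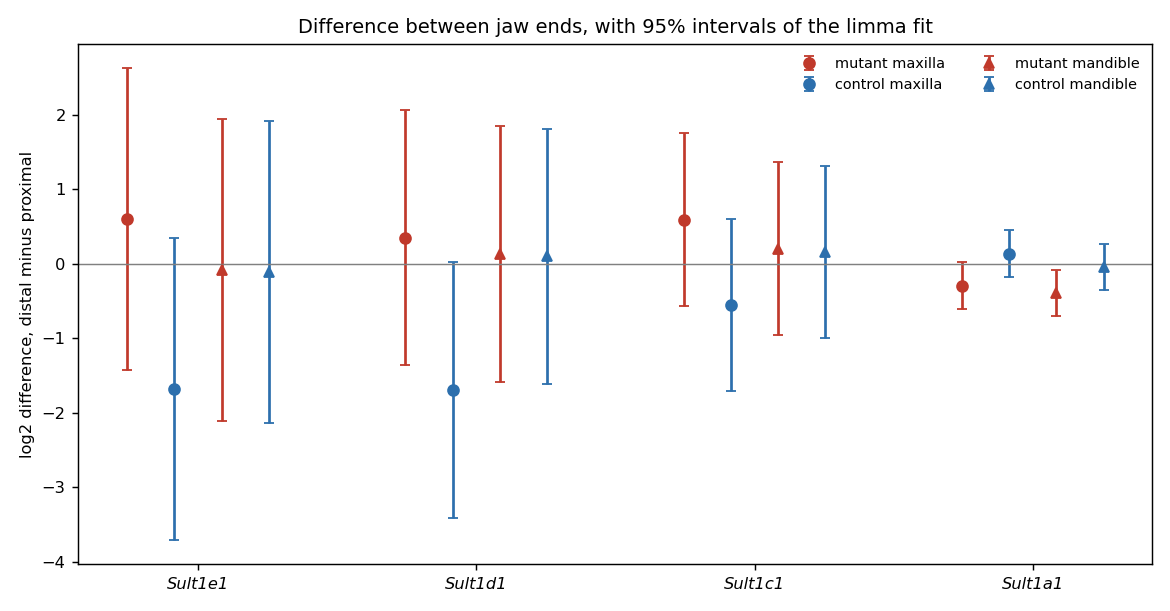
Distal minus proximal log2 difference (vertical axis) of each of the 4 genes in mutant and control maxilla (circles) and mandible (triangles), with 95% intervals of the limma fit. The control maxilla lies at −1.69 for Sult1e1 and −1.70 for Sult1d1, and its 4 intervals include 0. Intervals use the spread pooled over all 8 groups and are not adjusted for the number of genes. Those of Sult1e1, Sult1d1 and Sult1c1 in the mandible rest on dim values and are not read as results. The Sult1a1 interval in the mutant mandible (−0.70 to −0.08) is a description with no test.

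As a list, markers of the nasal lining moved with Sult1e1, Sult1d1 and Sult1c1. The nasal list holds genes of the supporting epithelium and glands, such as the olfactory cytochrome Cyp2g1, and its level is the mean log2 value of 16 measured genes, each centred on the 24 arrays. That level was −0.84, −0.74 and 1.61 in the mutant proximal maxilla, against 1.76, 1.74 and 1.65 in the controls. At the distal end it was −0.17, 0.61 and 1.00 in the mutants, against 1.45, 0.19 and 1.31 in the controls. The 12 mandible arrays lay between −0.90 and −0.65. The 3 mutant arrays in which Sult1e1 was as dim as in the mandible were the 3 lowest maxilla arrays in nasal markers. The list level moved with Sult1e1, Sult1d1 and Sult1c1, and the part of these markers in the result was not tested.

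In the proximal maxilla 9 of 13 tested nasal genes passed as lower in mutants and 0 as higher. Of all genes tested there 11.1% passed as lower, 12.2% as higher and 23.3% in either direction. With the replicate number as a block 10 nasal genes passed as lower and 1, Trpm5, as higher. Markers of olfactory neurons (8 of 14), of ciliated respiratory epithelium (5 of 10), of epithelium in general (8 of 15), of neurons (10 of 15) and of cartilage (11 of 15) also passed as lower there, and none as higher. Skeletal muscle markers (12 of 19), keratinocyte markers (10 of 16) and macrophage markers (8 of 10) passed as higher, and none as lower. Liver markers (0 of 2) and blood markers (0 of 4) did not pass. Some lists share a gene, so their counts are not fully separate. Foxj1 stands in the nasal and the ciliated list, and Stmn3 in the olfactory neuron and the neuron list.

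Proximal mutant replicate 3, distal control replicate 2 and distal mutant replicate 1 each stood apart from the other arrays of their group in Sult1e1 and Sult1d1. In distal mutant replicate 1 Sult1e1 was 4.75, against 7.53 and 8.27, and Sult1d1 4.45, against 6.01 and 6.42. Its nasal level, −0.17, was the lowest of its group. Without it the distal mutant minus control difference of Sult1e1 was −1.05. In proximal mutant replicate 3 the nasal list level was 1.61, against 1.65 to 1.76 in the proximal controls, the olfactory neuron level 1.00, against 1.47 to 1.64, and the ciliated level 1.53, against 1.21 to 1.46. Its Sult1e1 (9.07), Sult1d1 (7.70) and Sult1c1 (5.64) lay below every proximal control, as its nasal and olfactory neuron levels did. Distal control replicate 2 had a nasal level of 0.19, below the 0.61, 1.00 and 1.61 of the 3 mutant arrays whose Sult1e1 and Sult1d1 exceeded its own. Its Sult1c1, at 6.22, lay above that of each mutant maxilla array. Leaving out the 3 mutant arrays lowest in nasal markers left a single proximal mutant, whose difference from the controls was −1.56 for Sult1e1, −1.47 for Sult1d1 and −2.64 for Sult1c1, with no test.

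Sult1a1 moved with other lists. The arrays with the highest Sult1a1, proximal mutant replicate 1, distal mutant replicate 1 and proximal mutant replicate 2, were also the maxilla arrays highest in macrophage and muscle markers. Their macrophage list levels were 1.05, 0.83 and 0.68, and their muscle list levels were 1.90, 1.11 and 0.91. Over the control maxilla the macrophage level ranged from −0.34 to −0.01 and the muscle level from −2.23 to −0.75. In the control mandible Sult1a1 stood at 6.99 to 7.25, with a muscle level of 0.71 to 2.14 and a macrophage level of −0.23 to 0.27. The part of these cells in the Sult1a1 level was not tested.

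**Figure D3:**
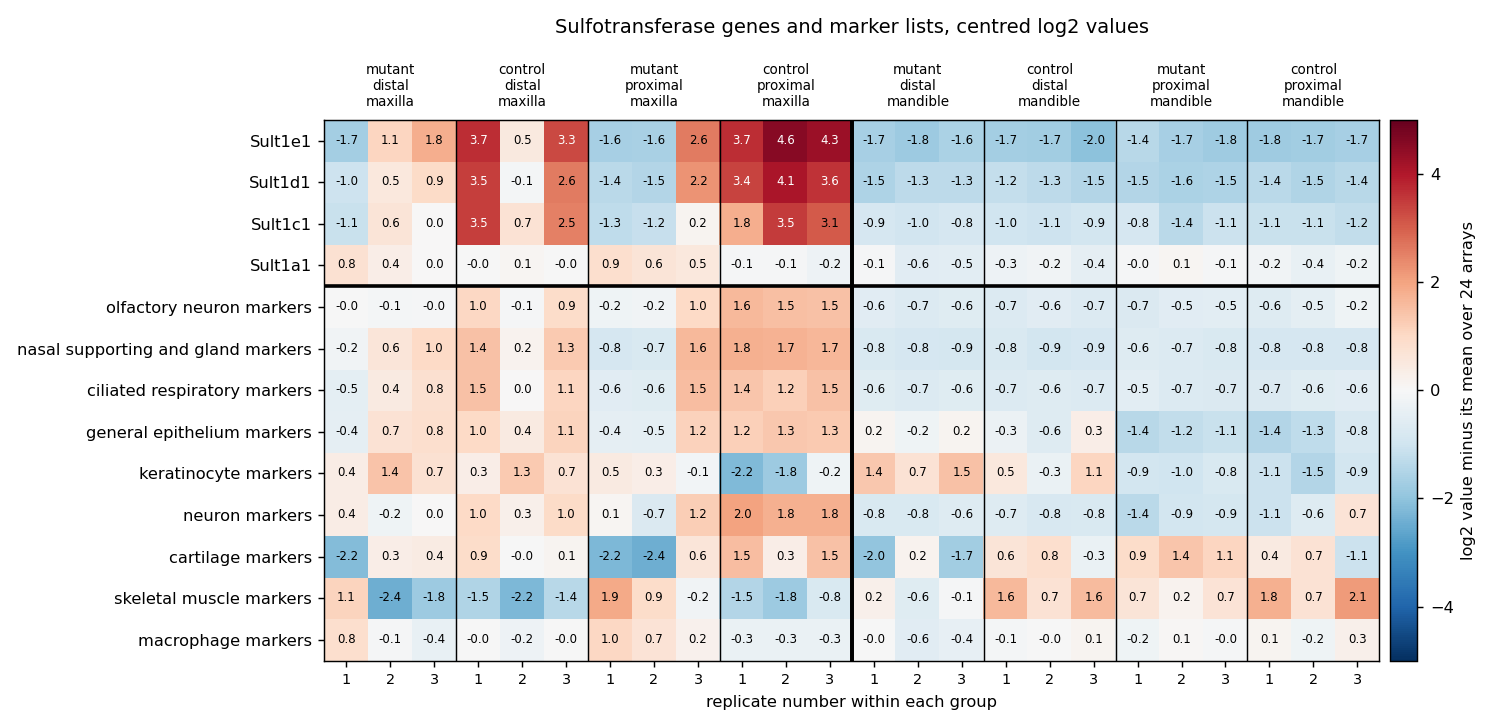
Centred log2 values (colour scale and printed numbers, log2 value minus the mean over 24 arrays) of the 4 genes and of 9 marker lists (rows) in each array (columns, by group and replicate). The 3 mutant maxilla arrays that are low in Sult1e1, Sult1d1 and Sult1c1 are low in nasal, ciliated and cartilage markers and high in muscle and macrophage markers, and control distal replicate 2 is low in nasal markers.

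Over the 24 arrays the first 3 genes ran nearly in parallel. Pearson's r was 0.99 between Sult1d1 and Sult1e1 and 0.95 between Sult1c1 and each of them, and −0.05 to 0.07 between Sult1a1 and the 3. These are descriptions across arrays that share groups. After each group's mean was subtracted, r was 0.97 for Sult1d1 with Sult1e1, 0.85 for Sult1c1 with Sult1d1 and 0.83 for Sult1c1 with Sult1e1. Sult1a1 then ran against them, with r from −0.56 to −0.43.

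The genes most like each member were taken by the highest Pearson's r over the 24 arrays among the genes tested, 6 for each. For Sult1e1 they were Svopl (0.994), Insm1 (0.989), Sp8, Pon1, Dmrt3 and Slc27a2 (0.985). Insm1 encodes a zinc finger factor of neurogenic and endocrine progenitors, Sp8 and Dmrt3 encode transcription factors, Pon1 a paraoxonase and Slc27a2 a fatty acid transporter with acyl-CoA synthetase activity. For Sult1d1 they were Slc27a2 (0.991), Svopl (0.991), 5730403I07Rik, Insm1, Ermn and Tesc (0.983). For Sult1c1 they were Pon1 (0.952), Svopl (0.944), Tspan1, 5730403I07Rik, A830010M20Rik and Cnga2 (0.931), the last encoding a subunit of the olfactory cyclic nucleotide-gated channel. Sult1a1 had other companions: Apoe (0.930), an apolipoprotein made by macrophages and many other cells, Mdfic (0.889), Sox17, Rgs17, Tyr and Mdga2 (0.866).

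Within groups, the closest genes to Sult1e1 were Svopl (0.976), Pih1d2, Ccno, Rsph1, Pon1 and Ildr1 (0.968), of which Ccno and Rsph1 serve motile cilia. Those closest to Sult1d1 were Slc27a2 (0.975), Svopl, Cdkl4, Mlf1, Trim66 and Cnpy1 (0.961). Those closest to Sult1c1 were Pon1 (0.851), Wdr78, Tspan1, Trib3, Pnma1 and the water channel gene Aqp5 (0.817). Those closest to Sult1a1 were Sema5b (0.885), Ntrk3, Trpm5, Psap, Cela1 and Meox2 (0.818). Trpm5 also stands in the nasal marker list, against whose level it ran. Its mean in the proximal maxilla was 8.28 in mutants and 7.72 in controls. Svopl and Slc27a2 for Sult1d1, Svopl and Pon1 for Sult1e1, and Pon1 and Tspan1 for Sult1c1 stood in both lists, while Sult1a1 had no gene in both.

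In gene order on chromosome 5, Sult1d1 and Sult1e1 lie between Sult1b1 and the milk casein genes Csn1s1, Csn2 and Csn1s2a. Sult1b1, a sulfotransferase that acts on thyroid hormones, was dim but showed the same ordering: 4.41, 4.59 and 5.13 in the mutant proximal maxilla, against 5.70, 6.51 and 5.56 in the controls. Its difference was −1.21 ± 0.23 (SE), and it stayed under the filter, so it was not tested. The 3 caseins stood at group means of 4.60 to 5.42 in all 8 groups, at the dim end of the scale. Sult1c2, the neighbour of Sult1c1 on chromosome 17, had group means of 5.23 to 5.43. On the other side of Sult1c1 the choline transporter gene Slc5a7 had group means of 5.31 to 5.65. Among the measured neighbours of Sult1a1 (Nupr1, Sgf29, Slx1b, Bola2 and Coro1a), none passed in the proximal maxilla by limma, with adjusted p from 0.0561 to 0.807.

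Of the other 17 cytosolic sulfotransferases listed, 9 were measured and 3 were bright enough to test. Sult4a1, a form found mainly in brain, fell in the proximal maxilla, with 7.02, 6.75 and 8.50 in mutants against 9.61, 9.61 and 9.39 in controls (−2.11 ± 0.37, SE, limma adjusted p = 0.00096). Sult5a1, a less studied relative, rose there, with 9.80, 9.72 and 9.18 in mutants against 8.11, 8.55 and 8.39 in controls (1.22 ± 0.17, adjusted p = 0.000255). Sult2b1, which sulfonates cholesterol and other hydroxysteroids, did not pass (−0.56 ± 0.34, adjusted p = 0.266). So among the tested relatives 1 fell, 1 rose and 1 did not pass, where 23.3% of all genes passed in either direction, and their median difference was −0.56, against 0.01 over all genes.

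Of the 3, 0 passed in the distal maxilla, and limma called 0.195% of genes there. The differences were −1.03 for Sult4a1, 0.43 for Sult5a1 and −0.55 for Sult2b1. Between the ends of the control maxilla Sult4a1 was lower distally (−1.56 ± 0.37, SE, limma adjusted p = 0.0174) and Sult5a1 higher (0.56 ± 0.17, adjusted p = 0.0472). Both of these calls were lost without distal control replicate 2, with adjusted p of 0.13 for Sult4a1 and 0.259 for Sult5a1. Sult4a1 also lost it without proximal control replicate 1 (0.0739), and Sult5a1 without proximal control replicates 1 or 3 or distal control replicate 3. Sult6b1, dim and untested, differed by −0.66 ± 0.09 in the proximal maxilla. The other measured relatives, Sult1c2, Sult2a2, Sult2a8 and Sult3a1, were dim as well, and Sult2a1, Sult2a3, Sult2a4, Sult2a5, Sult2a6, Sult2a7, Sult3a2 and Sult6b2 were not measured under a symbol of their own.

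**Figure D4:**
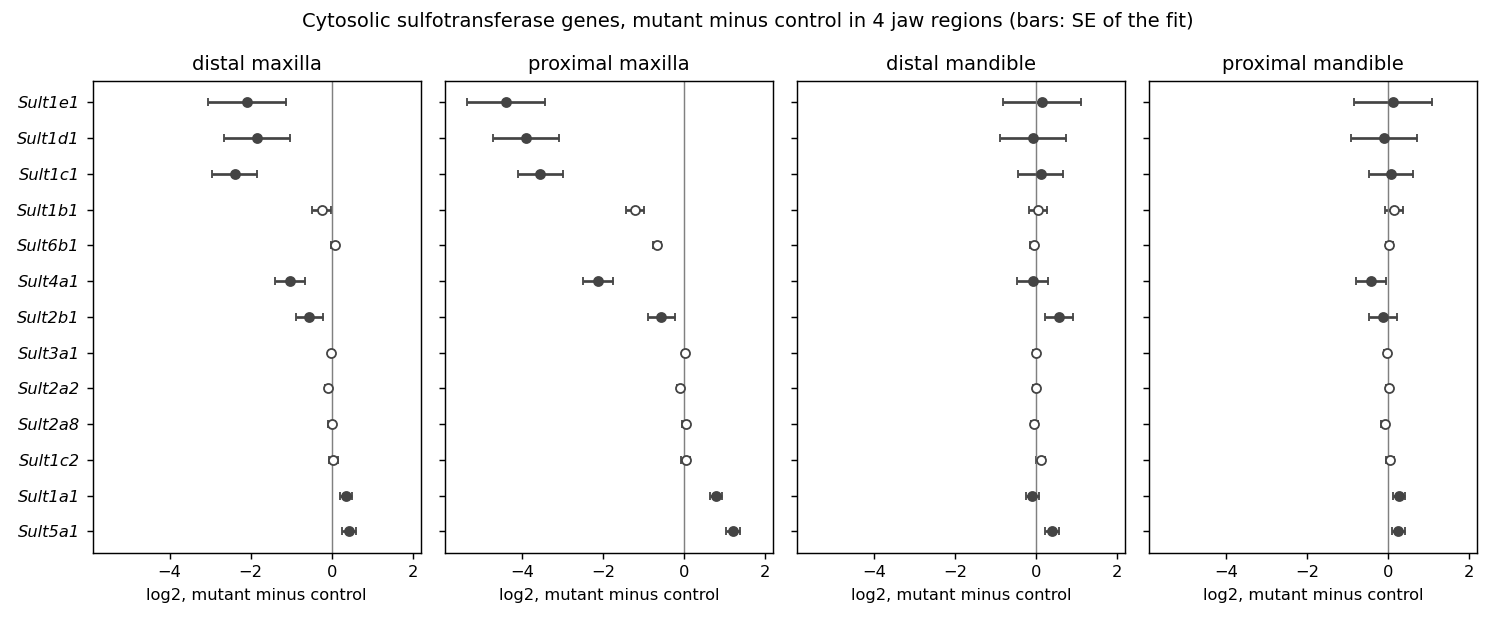
Mutant minus control log2 difference (horizontal axis) of 13 cytosolic sulfotransferase genes in the 4 jaw regions, with bars for the SE of the fit. Filled circles are genes above the filter on dim values and open circles are genes below it, which were not tested. Sult1e1 lies at −4.39 and Sult5a1 at 1.22 in the proximal maxilla.

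The donor PAPS is made by Papss1 and Papss2, its spent form PAP is cleared by Bpnt1 in the cytosol and Bpnt2 in the Golgi, and sulfate enters cells through Slc26 and Slc13 transporters. Of 13 such genes 12 were measured and 9 tested, and in the proximal maxilla 2 fell and 1 rose, where 11.1% of all genes tested fell and 12.2% rose. Papss2 fell to 10.6 ± 0.96 in mutants, against 12.2 ± 0.44 in controls (SD, n = 3; −1.64 ± 0.56, SE, limma adjusted p = 0.0401). Bpnt1 fell by 0.55 (adjusted p = 0.00438), and the sulfate transporter gene Slc26a11 rose by 0.36 (adjusted p = 0.00983). The Papss2 call was lost without mutant proximal replicate 1 (adjusted p = 0.175) or 2 (0.165) and without control proximal replicate 1 (0.118) or 3 (0.111). The Slc26a11 call was lost without mutant proximal replicate 1 (0.0693) or control proximal replicate 1 (0.0585).

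The remaining genes of sulfate supply did not pass in the proximal maxilla. They were Papss1 (−0.08), the cartilage sulfate transporter Slc26a2 (−0.35), Slc26a6 (0.13), the Golgi PAPS transporters Slc35b2 (−0.09) and Slc35b3 (0.05), and Bpnt2 (−0.20), while Slc26a1, Slc13a1 and Slc13a4 were too dim to test and Impad1 is an older symbol of Bpnt2. The median difference over the 9 was −0.09, against 0.01 over all genes. Between the ends of the control maxilla Bpnt1 was lower distally (−0.42, limma adjusted p = 0.0418), a call lost when any of 5 of the 6 arrays compared was left out, with adjusted p up to 0.274. With the replicate number as a block Bpnt1 stayed lower and Slc26a6 passed as higher. In the distal maxilla and in both mandible comparisons of genotype, 0 of the 9 passed, where limma called 0.195% of all genes distally in the maxilla, 0.742% distally and 4.34% proximally in the mandible. With the replicate block these mandible shares rested on 354 and 1356 genes in place of 95 and 556.

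Sulfatases remove sulfate from their substrates. In the proximal maxilla 6 of 13 rose and 1 fell, where 12.2% of all genes tested rose and 11.1% fell, with a median difference of 0.35 against 0.01 over all genes. Arsj rose by 2.10 (limma adjusted p = 0.000518), Sulf1, a heparan sulfate endosulfatase, by 0.56 and the lysosomal arylsulfatase Arsb by 0.55, while the endosulfatase gene Sulf2 fell by 0.50 (adjusted p = 0.000255). Of the Golgi sulfotransferases, which modify proteins and glycans rather than small molecules, 6 of 24 rose and 0 fell, against those same 12.2% and 11.1%. They included Chst2 (0.75), Hs3st1 (0.72), Chst1 (0.66) and Chst15 (0.41). The Sulf1, Chst2 and Hs3st1 calls were each lost without mutant proximal replicate 1 or 2, with adjusted p from 0.0515 to 0.0789, and that of Sulf1 also without control proximal replicate 3 (0.0881) and that of Chst2 without control proximal replicate 1 (0.0777). The Arsb and Chst15 calls were lost when all probe sets of a gene were averaged (0.0653 and 0.103).

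Of 28 tested genes for other enzymes and receptors of drug and steroid metabolism, 11 fell and 4 rose in the proximal maxilla, where 11.1% of all genes fell and 12.2% rose. The largest differences were those of the cytochrome Cyp2f2 (−3.58 ± 1.04, SE, limma adjusted p = 0.0184), the retinal dehydrogenase gene Aldh1a1 (−3.20 ± 0.97), the carbonyl reductase gene Cbr2 (−2.90 ± 0.91) and Cyp2g1 (−2.81 ± 0.70, adjusted p = 0.00817). All 4 calls were lost without mutant proximal replicate 1 or 2, with limma adjusted p from 0.0581 to 0.176. Leaving out a proximal control ended the call of Cyp2f2 (replicate 2), Aldh1a1 (replicate 2 or 3) and Cbr2 (any of the 3). The list's median was −0.25, against 0.01 over all genes. Cyp2g1 also stands in the nasal marker list.

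The last list holds genes that make, break down or sense the substrates of these enzymes. Of 11 tested genes for oestrogen, thyroid hormone and dopamine handling, 2 rose and 1 fell in the proximal maxilla, a share near the 23.3% of all genes called there. Maob, a monoamine oxidase, fell by 0.89 (limma adjusted p = 0.00561), the related Maoa rose by 0.33 and the thyroid hormone receptor gene Thra rose by 0.50. In the distal maxilla 0 genes of any of these lists passed. In the proximal mandible the lists held 3 genes that passed, all higher, where 1.27% of all genes passed as higher. They were Fmo1 (0.92), a flavin monooxygenase, Hsd17b11 (0.42), a steroid dehydrogenase, and the Golgi sulfotransferase gene Ust (0.37). Each was the only call of its list, of 28, 11 and 24 tested genes in that order. Of the other cytosolic sulfotransferases 0 of 3 passed, of sulfate supply 0 of 9 and of sulfatases 0 of 13. The Hsd17b11 call was lost without any proximal mandible control or without mutant replicate 2 or 3, with adjusted p up to 0.0933, and when its probe sets were averaged (0.141). The Ust call was lost without any of those controls or mutant replicate 1, with adjusted p up to 0.163. With the replicate number as a block 8 list genes passed there, 6 higher and 2 lower, among them these 3.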

How the data were processed

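Total RNA, 5 µg per sample and extracted with Qiagen RNeasy kits per the labels' protocols, was made into biotin-labelled cRNA for Affymetrix mouse arrays. The deposited values are on a log2 scale, with 1 value per probe set and array, from 3.44 to 14.8. The submitters' processing notes name RMA and Partek 6.6, with neither settings nor a genome build. RMA shrinks differences of dim genes. Columns of no listed sample numbered 0.

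Probe sets were named from the platform's annotation: of 45101, 34945 had a single symbol, 932 several and 9160 none, and 64 array controls were left out. The probe set with the highest mean stood for a gene. The 12811 genes above the array median in at least 3 of 24 arrays were tested with limma 3.58.1 in R 4.3.3 (two-sided, all 24 arrays in 8 groups in 1 fit), with Benjamini-Hochberg adjustment and a threshold of 0.05. Python 3.11.15 drew the figures and read the promoters. Scripts were tested on simulated data. The precision is limited by the 3 arrays in each group.

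The 4 genes, the gene lists and the tests were chosen with earlier results of these data known. All 4 genes were named, every gene of the lists of other cytosolic sulfotransferases and of sulfate supply, up to 4 genes of each other list that passed, by size, and the 6 genes most like each member. Same-numbered samples deviated together in the 2 control comparisons of ends (every pair's r at least 0.110) and in the mandible comparisons (at least 0.151). In the maxilla comparisons of genotype r ran from 0.095 to 0.350 distally and from −0.013 to 0.266 proximally. For the difference of the genotype effect between the maxilla ends it ran from −0.270 to 0.695. The lowest r of each missed the cut set for pairing, that of the distal comparison narrowly. The number was thus taken to pair samples in the control and mandible comparisons. The main fit has no block, so its SEs, intervals and adjusted p leave this pairing out, and the replicate block was run as an alternative. Alternatives changed the filter, the probe set rule, the scaling, the weights, the arrays in the fit, the block and the arrays left out.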

Additional observations from a re-analysis of the deposited data

How the results depend on the processing

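For the genotype differences of Sult1e1, Sult1d1, Sult1c1 and Sult1a1 in the maxilla, every alternative run kept the direction: −5.80 to −1.56 for Sult1e1, −5.11 to −1.47 for Sult1d1, −4.04 to −2.64 for Sult1c1 and 0.64 to 0.87 for Sult1a1 proximally. Distally they ran from −3.09 to −1.05, −2.89 to −1.12 and −3.15 to −1.78 for the first 3 genes and from 0.17 to 0.54 for Sult1a1. The exceptions to the calls on the jaw ends are given with those results, and the replicate block changed no call of the 4 genes. The random replicate block, by genotype and number, had a correlation of 0.342.

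Counts of genes called moved by over 1.5 times as follows. Between the ends of the control maxilla 1079 became 44 with only the arrays of that jaw, 2859 with array weights, 1729 with the fixed and 2140 with the random replicate block, 1744 without the 3 mutant arrays low in nasal markers, and 116 to 996 with an array left out (116 without distal control replicate 2). Between the ends of the control mandible 740 became 1779 with array weights, 1193 and 1432 with the fixed and random replicate block, and 303 to 593 with an array left out. The genotype by end difference in the maxilla called 1 gene, against 5 without a filter, 0 with only that jaw, 0 after quantile normalization, 2414 with array weights, 0 and 137 with the fixed and random block, and 0 to 652 with an array left out (652 without proximal mutant replicate 3). That in the mandible called 0, against 11 with only that jaw, 80 with array weights, 1 and 16 with the fixed and random block, and 0 to 5 with an array left out.

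Mutant against control called 25 genes in the distal maxilla, against 9 with only that jaw, 564 with array weights, 41 after quantile normalization, 80 with the fixed block, 16 without the 3 arrays, and 7 to 61 with an array left out. In the proximal maxilla 2984 became 1630 with only that jaw, 6205 with array weights and 1363 to 3932 with an array left out (1363 without mutant replicate 1). In the distal mandible 95 became 292 with only that jaw, 984 with array weights, 354 with the fixed block, 354 without the 3 arrays, and 35 to 116 with an array left out. In the proximal mandible 556 (163 higher, 393 lower) became 1693 with array weights, 1356 with the fixed block, 915 without the 3 arrays and 125 to 535 with an array left out. Quantile normalization turned that split to 258 higher and 308 lower, and median centring to 162 and 237. The cause of these moves was not tested.

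Not run were comparisons of the proximal mutant maxilla without the 3 arrays as a test, since a single mutant array is left, and Sult1c1 under the stricter filter of 6 arrays, which it does not pass. Signal near background limits Sult1e1, Sult1d1 and Sult1c1 in the mandible, where a lower level could not be seen.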
